A study of Mus musculus with 6 samples.

Results

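Clearance of dying cells in the aortic arch was followed through 9 genes that act at the contact between a phagocyte and its target. They are the receptors Mertk, Axl, Tyro3 and Stab1, the bridging molecules Gas6, Pros1 and Mfge8, and the brake formed by Cd47 and its receptor Sirpa. They were chosen by name from the pathway, all 9 were found by symbol among the 14298 genes listed, and none was lost to the filter on low values. RNA came from aortic arches of adult C57/BL6 mice, and the study names 3 mice per genotype and 3 libraries of each. The labels do not say that a library is a single mouse, so p-values measure the spread between these libraries. All mice lacked ApoE, which makes them prone to atherosclerosis, and carried floxed alleles of Rbpj, the factor through which Notch receptors act on DNA. The control genotype was ApoE-/-;RBPJflox/flox, and the knockout genotype carried in addition Cdh5-CreERT, a tamoxifen-activated recombinase whose Cdh5 promoter is active in endothelial cells. At 8 weeks of age the mice received tamoxifen for 1 week, and then a high-fat diet for 6 weeks. The controls had no recombinase, so its presence and the deletion cannot be told apart.

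Dying cells display phosphatidylserine on their surface. Gas6 and protein S (Pros1) bind it and bridge it to tyrosine kinase receptors, Gas6 to Mertk, Axl and Tyro3 and protein S to Mertk and Tyro3, while Mfge8 links it to integrins and stabilin-1 (Stab1) binds it directly. CD47 on a healthy cell engages SIRP alpha on the phagocyte and holds engulfment back. In an atherosclerotic wall this process is known for keeping the necrotic core of a plaque small, and macrophages, smooth muscle cells and endothelial cells all express parts of it.

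The sequences upstream of these genes are shown first because the deleted protein is a DNA-binding factor. RefSeq windows of 250 bases before the start (build GRCm38.p6) were matched by symbol for 8 of the 9 genes, all but Sirpa. RBPJ binds the core TGGGAA, and the extended form GTGGGAA contains that core. Both were searched on both strands, along with the GC box GGGCGG, a site of SP1-type factors. Mfge8 was the 1 gene whose window held the RBPJ core, and it also held the extended form, on the opposite strand at bases 83 to 77 before the start. Across the 32851 windows of the table, 21.6% held the core and 5.42% the extended form. A GC box was found in 7 of the 8 windows, against 32.7% of all windows, and Stab1 was the exception. The windows of Mfge8 (chr7:79149061-79149310, minus strand), Stab1 (chr14:31168642-31168891, minus strand) and Axl (chr7:25788734-25788983, minus strand) are printed 5′ to 3′ on the strand of the gene. Mfge8 was chosen for its RBPJ match. Stab1 and Axl were chosen because their groups did not overlap in expression, which was also so for Cd47. Capitals mark the RBPJ motif TTCCCAC, as it reads on this strand, and the GC boxes (GGGCGG, or CCGCCC on the opposite strand).
Mfge8: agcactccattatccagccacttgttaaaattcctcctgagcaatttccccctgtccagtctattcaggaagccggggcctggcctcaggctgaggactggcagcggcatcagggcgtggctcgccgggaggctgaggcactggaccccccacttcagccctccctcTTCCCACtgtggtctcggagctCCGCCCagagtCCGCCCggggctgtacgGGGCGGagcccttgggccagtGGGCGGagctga
Stab1: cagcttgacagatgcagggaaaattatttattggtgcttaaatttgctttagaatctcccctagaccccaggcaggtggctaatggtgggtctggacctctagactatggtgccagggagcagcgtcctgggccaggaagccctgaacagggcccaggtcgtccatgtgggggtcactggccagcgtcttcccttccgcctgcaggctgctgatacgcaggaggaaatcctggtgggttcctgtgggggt
Axl: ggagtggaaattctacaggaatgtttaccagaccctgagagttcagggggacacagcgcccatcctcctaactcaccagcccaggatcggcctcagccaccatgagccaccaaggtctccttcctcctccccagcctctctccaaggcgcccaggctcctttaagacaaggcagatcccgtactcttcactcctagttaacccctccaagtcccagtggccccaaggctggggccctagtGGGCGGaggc
The 2 windows of Cd47, not printed, differed from that of Stab1 in base composition. They held 30 and 31 CpG dinucleotides and 73.2% and 74.4% G and C, against 5 and 57.2%. These matches describe the letters in the windows and say nothing of binding in the arch.

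Values are normalised read counts scaled to library size (CPM). Each log2 fold change subtracts the control mean from the knockout mean after log2(value + 1), so that of a low gene comes out too small. Depth over the listed genes was between 5904504 and 10072495 reads per library. No pair of libraries of a group was a duplicate, since their counts differed by a chi-square per degree of freedom of 12.5 to 34.1. Control S591 was nearer to knockout S599 (15.2) and knockout S595 (20.9) than to either other control (32.3 and 34.1). Knockout S598 lay further from it (39.2). The targeted gene Rbpj stood at 189 ± 13.2 in control and 193 ± 21.7 in knockout arches (SD, n = 3 each), with a log2 fold change of 0.03, and whole-arch RNA does not check a deletion in the endothelium alone. Smooth muscle markers, which define the tissue, had a high summed level in all libraries (10 of 10 measured, 13251 to 31871 CPM). Not every marker was high, with Des at 18.8 CPM in control S594. T cell and thymocyte markers stood apart in knockout S598 and S599, with summed levels of 30.7 to 221 CPM over the knockout libraries and 33.7 to 44.5 over the controls. Red blood cell markers (5 of 6 measured) set the same libraries apart, with sums of 1107 in S598 and 1684 in S599 against 120 in S595 and 288 to 442 in the controls. Airway secretory transcripts were higher in all 3 knockout libraries, Scgb1a1 at 2.40 ± 1.17 and 29.0 ± 7.53 CPM and Bpifa1 at 1.72 ± 1.48 and 39.5 ± 9.72, and they were 2 of the 3 genes that passed the adjusted limma test (adjusted p = 0.0317 for each). The part of tissue composition in the results was not tested.

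None of the 9 genes passed the test between the groups. By limma with Benjamini-Hochberg adjustment over all genes, 0 of 9 had an adjusted p under 0.05, where 0.021% of all 14298 genes did. At an unadjusted p under 0.05, limma gave 3 of 9 (Cd47, Stab1 and Sirpa), all lower in the knockout arches, where 12% of all genes were lower and 8.04% higher at that level. All knockout values lay below all control values for 2 of 9 (Cd47 and Stab1), where 14.2% of all genes were separated that way, and above them for 1 of 9 (Axl), where 11.3% were. The median log2 fold change of the 9 genes was −0.21, and that of all genes was −0.02. With all libraries 3 of 9 had their groups apart in either direction, against 25.5% of all genes. Leaving libraries out can keep or add such genes but not remove them. The count became 5 of 9 without control S591 (43.4% of all genes), without knockout S595 (42.1%), or without knockout S598 and S599 together (57.4%). It was 4 of 9 without control S594 (29.9%), knockout S598 (29.6%) or knockout S599 (37.9%), and 3 of 9 without control S592 (34.9%).

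**Figure D1:**
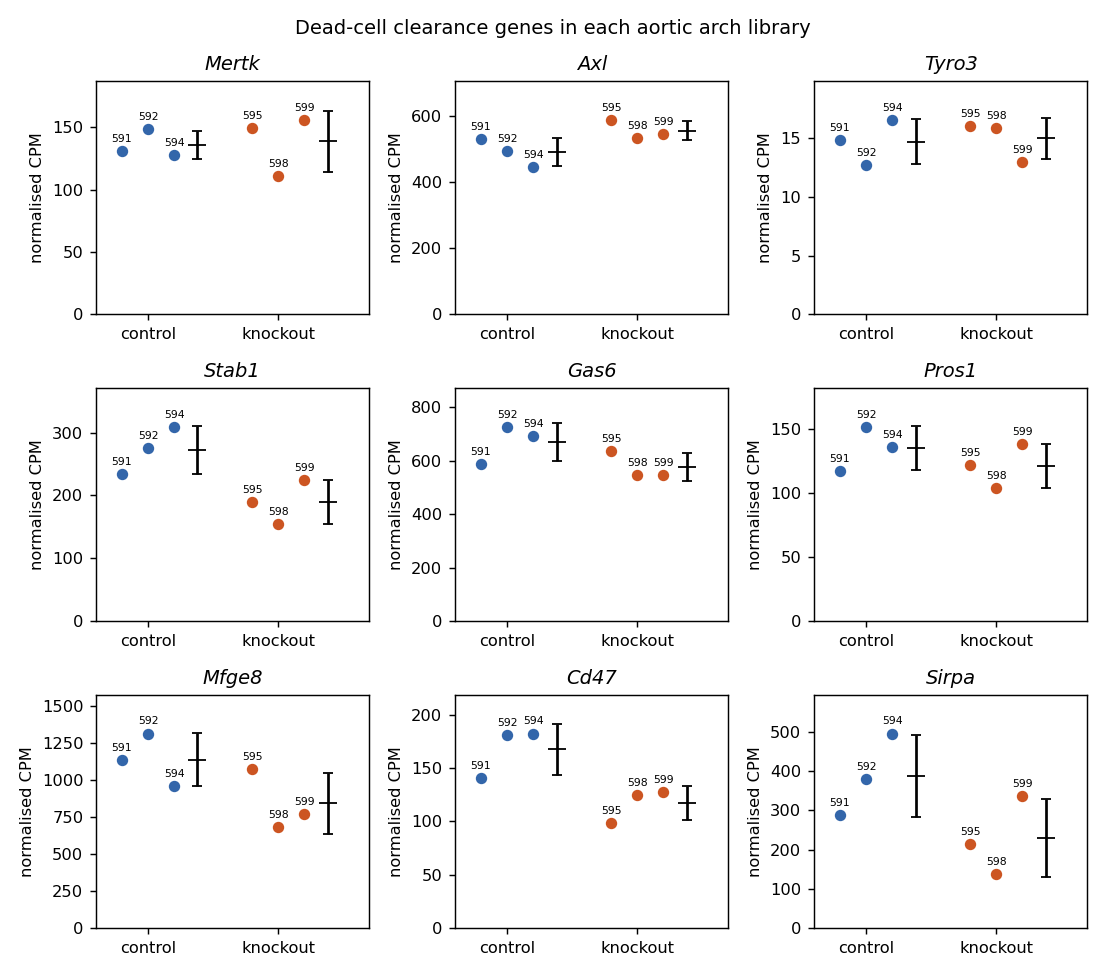
Normalised CPM (vertical axes, from 0) of the 9 clearance genes in each library (points, labelled by library number) of the control and knockout groups, with mean and SD as bars (n = 3 per group). Cd47 and Stab1 lie lower in every knockout library, while Mertk and Tyro3 overlap.

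The 3 receptor tyrosine kinases stood close to their control levels. Mertk, the receptor that macrophages use most to take up dying cells, read 131, 149 and 128 CPM in the controls S591, S592 and S594. It read 149, 111 and 156 in the knockout libraries S595, S598 and S599. The knockout values enclosed the control values on both sides. Group means were 136 ± 11.2 and 139 ± 24.3 CPM (SD, n = 3 each), a log2 fold change of 0.02 (standard error 0.15; limma, adjusted p = 0.958). The 95% interval ran from 0.80-fold to 1.28-fold.

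Axl, the receptor more typical of inflamed or stromal cells, read 531, 495 and 446 CPM in the controls and 588, 535 and 545 in the knockout libraries. All knockout values lay above the controls, the nearest pair being control S591 and knockout S598. The log2 fold change was 0.18 (standard error 0.12; limma, adjusted p = 0.435), and its 95% interval of 0.937-fold to 1.37-fold included no difference. Tyro3, the third kinase of the family, read 14.8, 12.7 and 16.5 CPM in the controls and 16.1, 15.9 and 12.98 in the knockout libraries. Its groups overlapped fully, with a log2 fold change of 0.03 (limma, adjusted p = 0.939), on only 82 to 164 reads per library. The signs of Mertk and Tyro3 turned when single libraries were left out, with ranges of −0.075 to 0.17 and −0.068 to 0.12.

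Stab1, the scavenger receptor of tissue macrophages and of sinusoidal and lymphatic endothelium, stood lower. It read 233, 276 and 309 CPM in the controls and 190, 154 and 224 in the knockout libraries. The groups did not overlap, although knockout S599 lay just under control S591. The means of 273 ± 38.1 and 189 ± 34.98 (SD, n = 3 each) differed by a log2 fold change of −0.53 (standard error 0.16). Limma gave an unadjusted p of 0.013 and an adjusted p of 0.152. Of its exon bases, 112 (1.09%) lie under exons of Nt5dc2 on the opposite strand in the GENCODE M21 annotation, and the library kit named in the labels does not mark strand. Of the lymphatic endothelial markers 3 of 5 were measured, with summed levels of 61.4 to 109 CPM in the controls and 25.9 to 31.1 in the knockout libraries. Most of that sum in the controls was Pdpn (35.8 to 92.6 CPM), which other cell types express too. Pdpn and Reln had their groups apart, and Flt4 overlapped. Lyve1, another marker of lymphatic vessels that was listed under resident macrophages, stood at 35.3 ± 14.9 and 30.4 ± 4.28 CPM with overlapping groups. The part of such cells in the Stab1 difference was not tested. In bulk tissue, fewer cells of a type and less RNA per cell cannot be told apart.

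**Figure D2:**
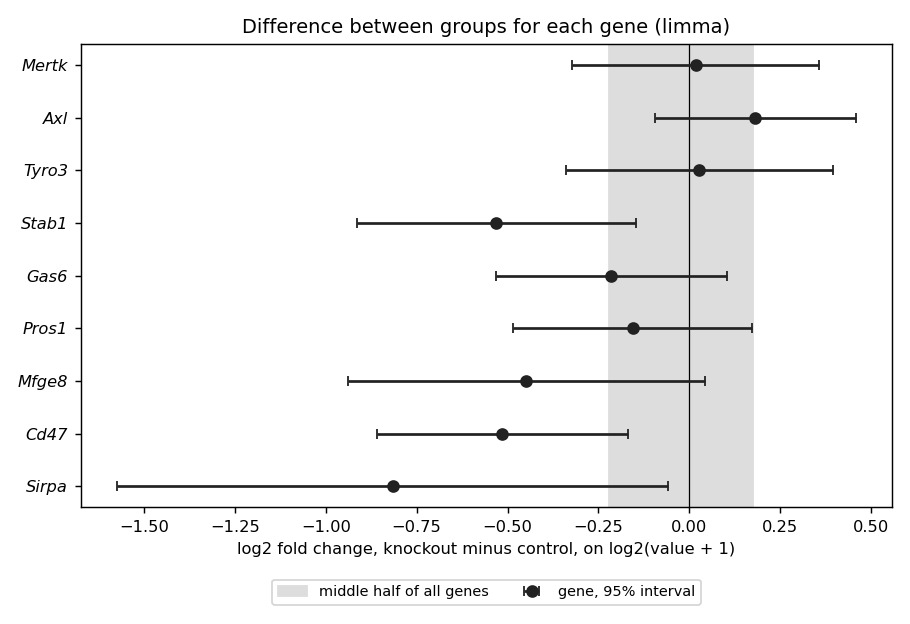
Log2 fold change (knockout minus control, horizontal axis) of each of the 9 genes by limma with its 95% interval (bars), beside the middle 50% of all genes (grey band, −0.22 to 0.18). The intervals of Stab1, Cd47 and Sirpa lie below 0, and those of the other genes include 0.

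The 3 bridging molecules had knockout means below the control means, and none passed the test. Gas6, the ligand of all 3 kinases, read 589, 727 and 692 CPM in the controls and 636, 545 and 547 in the knockout libraries. Knockout S595 lay above control S591, so the groups overlapped. The log2 fold change was −0.21 (standard error 0.14; limma, adjusted p = 0.424). Pros1, the anticoagulant protein that also activates Mertk and Tyro3, read 117, 152 and 136 CPM in the controls and 122, 104 and 138 in the knockout libraries. Its groups overlapped too, with a log2 fold change of −0.16 (limma, adjusted p = 0.583).

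Mfge8, known in the vessel wall as the source of the medin fragment and abundant in smooth muscle, read 1139, 1315 and 961 CPM in the controls. It read 1075, 680 and 773 in the knockout libraries, and S595 alone lay within the control range. Means were 1138 ± 177 and 843 ± 206 CPM (SD, n = 3 each), and the log2 fold change was −0.45 (standard error 0.21; limma, adjusted p = 0.288). Both lower libraries are those with the high T cell, thymocyte and red blood cell markers. With S595 as the 1 knockout library left, assumed to vary like the controls, the log2 fold change was −0.07. The part of those markers in the difference was not tested. The integrin subunits that receive Mfge8, chosen after their values were seen, stood near their control means, Itgav at 149 ± 22.9 and 145 ± 6.31 CPM, Itgb3 at 170 ± 27.0 and 178 ± 20.7, and Itgb5 at 510 ± 71.0 and 512 ± 47.0 (limma, adjusted p = 0.827 to 0.977).

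Both genes of the brake had lower knockout means, and neither passed the adjusted test. Cd47, the signal displayed by healthy cells, read 140, 181 and 183 CPM in the controls and 98.5, 125 and 128 in the knockout libraries. The groups did not overlap. Means of 168 ± 23.9 and 117 ± 16.3 (SD, n = 3 each) gave a log2 fold change of −0.51 (standard error 0.15) and a 95% interval of 0.551-fold to 0.890-fold. It had the smallest p of the 9 genes by limma (unadjusted 0.00923, adjusted 0.136). With limma array weights, which count S592 and S598 more and S591 less, its adjusted p was 0.0491, against 0.475 with S595 as the 1 knockout library, and these were the lowest and the highest over all alternatives.

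Sirpa, the inhibitory receptor of myeloid cells, varied most between libraries. It read 288, 382 and 497 CPM in the controls and 213, 139 and 337 in the knockout libraries. Knockout S599 lay above control S591, so the groups overlapped. The log2 fold change was −0.82 (standard error 0.33; limma, unadjusted p = 0.0381, adjusted p = 0.222), and −0.50 without knockout S598. Its level is uncertain where reads could also fit related SIRP genes. The phosphatase Ptpn6 (SHP-1), through which SIRP alpha signals, stood at 59.7 ± 17.8 and 27.9 ± 5.22 CPM with its groups apart, while the other phosphatase of this route, Ptpn11 (SHP-2, chosen after its values were seen), stood at 222 ± 29.3 and 238 ± 14.1 (limma, adjusted p = 0.111 and 0.671).

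Set per length, Gas6 and Mfge8 were the most abundant of the 9 transcripts. Levels were divided by the summed exon length of each gene in GENCODE M21, and are in CPM per kb. Gas6 led with 263 ± 28.2 in the controls (SD, n = 3), followed by Mfge8 with 242 ± 37.7, and the ranges of this pair over the 6 libraries overlapped. Axl followed at 97.5 ± 8.44, and its highest library (117) lay below the lowest of Mfge8 (145). Sirpa stood next at 79.2 ± 21.2, overlapping Axl, with Pros1 at 33.0 ± 4.22 and Mertk at 31.3 ± 2.58. Cd47 stood at 26.8 ± 3.80 and Stab1 at 26.5 ± 3.70. Over the 6 libraries the ranges of Sirpa, Pros1, Mertk, Cd47 and Stab1 all overlapped each other. Neither Pros1 and Mertk nor Cd47 and Stab1 could be ordered. Tyro3 was lowest at 2.37 ± 0.312, below all others in every library.

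Beside these differences, macrophage markers were lower by more. All 15 of 15 had reads in every library and were lower at an unadjusted p under 0.05 by limma, 11 of the 15 had their groups apart, and 0 passed the adjusted test. Their median log2 fold change was −1.11, and their summed level ran from 7142 to 11939 CPM in the controls and from 2862 to 7267 in the knockout libraries. Against the control mean, the marker average of knockout S598 was −1.60 on the log2 scale, with Sirpa at −1.45 and Stab1 at −0.81 there. In control S591 it was −0.42, with Sirpa at −0.39 and Stab1 at −0.21. In knockout S599 it was lower than that, at −0.62, while Sirpa was higher at −0.17 and Stab1 stood at −0.27. Mertk was also lowest in S598, at −0.29, but stood at 0.14 in S595 and 0.20 in S599, where the marker averages were −1.19 and −0.62. Over the knockout libraries the order of Mertk was thus that of the marker averages. Over the controls it was not, since Mertk was lowest in S594, at −0.08, where the marker average was highest, at 0.31. The part of macrophage number in these values was not tested.

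**Figure D3:**
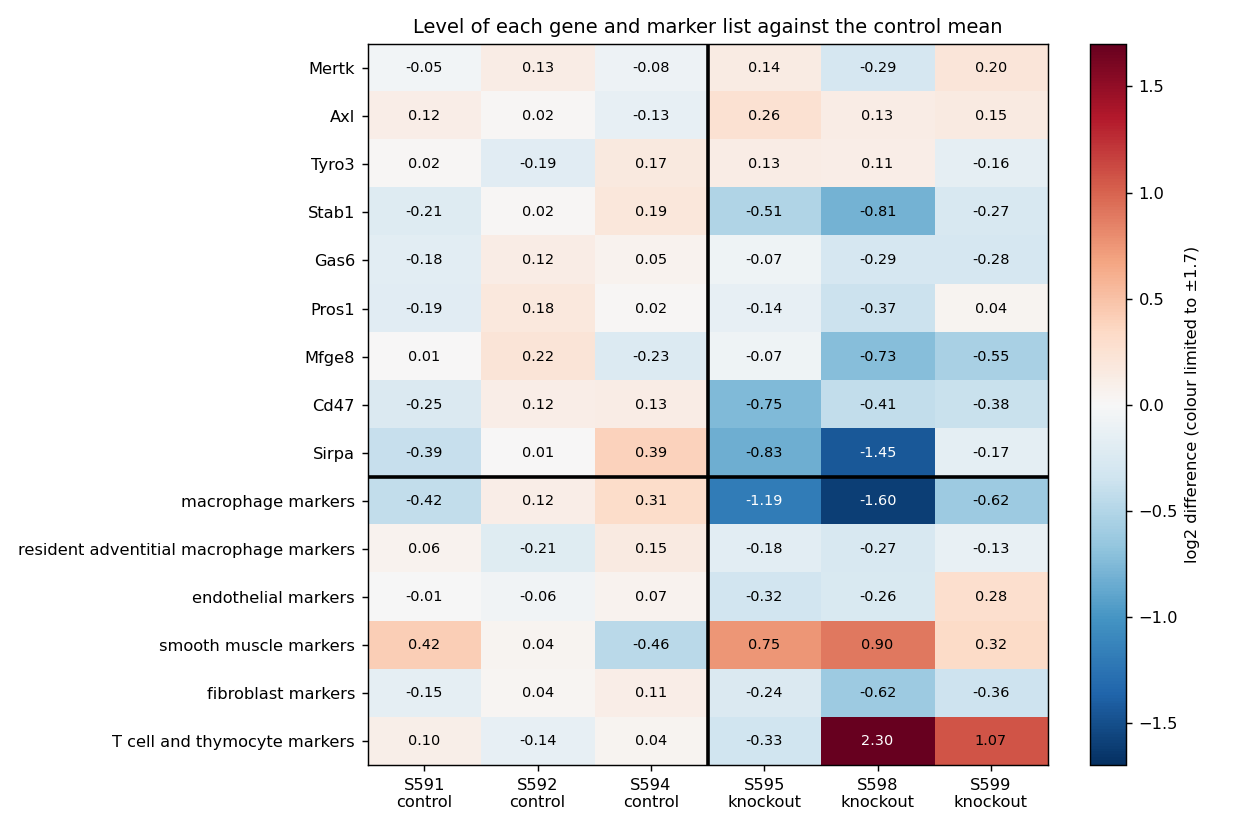
Level of each clearance gene (upper 9 rows) and the mean of each marker list (lower rows) in each library, as the log2(value + 1) difference from the control mean, with values printed in the cells (colour limited to ±1.7). Sirpa and Stab1 are lowest in S598, where the macrophage markers stand at −1.60, and Mertk is between −0.29 and 0.20 in all libraries.

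Taken relative to the macrophage markers, as the log2 difference to their mean within each library, 8 of the 9 genes stood higher in every knockout library than in every control. This is not particular to them, since 65.9% of all 14298 genes were separated in the same way and 0.175% in the other. The differences ran from 0.32 for Sirpa to 1.32 for Axl. For Mertk the relative level was −0.72 ± 0.38 in the controls and 0.44 ± 0.29 in the knockout libraries, and for Stab1 0.28 ± 0.18 and 0.89 ± 0.23 (SD, n = 3 each). Mfge8 was the exception, with overlapping groups. Markers of resident adventitial macrophages, a population rich in scavenger receptors, were mixed and lower by less than the general list. They had a median log2 fold change of −0.09 over 10 of 10 measured, 6 negative and 4 positive. At an unadjusted p under 0.05 by limma 3 were lower and 0 higher, and 2 had their groups apart and lower. Relative to this list 8 of the 9 genes overlapped between groups, and Axl was higher (difference 0.37), where 17.6% of all genes were higher and 4.62% lower. Relative to the smooth muscle markers 4 of the 9 (Tyro3, Gas6, Mfge8 and Cd47) were separated and lower and 0 higher, where 34.4% of all genes were lower and 0.126% higher. Relative to the endothelial markers 1 was lower (Sirpa, difference −0.72) and 0 higher, where 6.29% of all genes were lower and 4.99% higher. Relative to the fibroblast markers 3 were higher (Mertk, Axl and Tyro3) and 0 lower, where 39.4% of all genes were higher and 2.71% lower. The direction of a relative level thus differed with the list it was set against. Endothelial markers, from the cells in which the recombinase acts, had a median of −0.05, with 0 of 12 apart, and smooth muscle markers one of 0.65, with 5 of 10 apart and higher.

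The wider pathway was read from 8 lists of 106 further genes, of which 101 were measured. None passed the adjusted limma test. At an unadjusted p under 0.05, limma had 45 lower and 3 higher, where 12% of all genes were lower and 8.04% higher. The same shares hold beside the counts at that level in the single lists below. Groups were apart and lower for 42 and apart and higher for 6, beside 14.2% and 11.3% of all genes. The median log2 fold change of the 101 genes was −0.30. That of the macrophage markers was −1.11, and several genes named from the lists below are myeloid. The part of macrophage number in the counts of these lists was not tested. Of the 22 reported genes with the smallest p in their list, DESeq2 on the recovered reads called 18 at an adjusted p under 0.05, and limma called 13 without control S591 and 0 with all libraries and equal weights. With array weights limma called 20 among these and the 9 clearance genes, Cd47 being the 1 clearance gene. Over all 14298 genes limma called 671 without control S591 and 1011 with array weights. The 22 genes were picked by p in these same libraries, so the counts among them are not separate support. DESeq2 called 4.56% of the genes it tested lower and 2.13% higher, and 0 of the 9 clearance genes.

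Among other engulfment receptors, the 3 with the smallest p were scavenger and pattern receptors of myeloid cells, with Msr1, the class A scavenger receptor, at 112 ± 28.04 and 44.6 ± 17.3 CPM, Cd14 at 45.0 ± 24.7 and 12.5 ± 3.21, and the oxidised-lipoprotein receptor Olr1 at 10.6 ± 4.10 and 3.46 ± 1.23. Their log2 fold changes were −1.34, −1.66 and −1.35 (limma, adjusted p = 0.107 to 0.112). Unadjusted p-values under 0.05 were found for 6 of 16 measured receptors, all lower, with a median of −0.24.

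The 3 chains of complement C1q, which coats dying cells, stood lower together. C1qa read 248, 339 and 394 CPM in the controls and 159, 134 and 193 in the knockout libraries, with no overlap. The log2 fold changes of C1qa, C1qb and C1qc were −0.999, −1.03 and −0.97 (limma, adjusted p = 0.107, 0.118 and 0.110). At an unadjusted p under 0.05, this list had 9 lower and 1 higher of 11 measured genes, and its median was −0.97. The higher one, picked out after its values were seen, was Tub, known as a bridging ligand of Mertk, at 65.0 ± 24.3 and 126 ± 32.0 CPM (limma, adjusted p = 0.133).

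Among signals that attract phagocytes and their sensors, Cx3cl1, the chemokine that dying cells and endothelium shed, stood at 112 ± 22.1 and 54.8 ± 16.6 CPM, the nucleotide receptor P2ry6 at 45.2 ± 8.77 and 25.5 ± 4.55, and the sphingosine kinase Sphk1 at 12.4 ± 1.55 and 6.21 ± 2.13 (limma, adjusted p = 0.114 to 0.127). All 9 measured genes of this list had negative log2 fold changes, 7 of them at an unadjusted p under 0.05, with a median of −0.79. Genes of phosphatidylserine exposure had a median of −0.06 over 8 measured. The flippase Atp11a stood at 112 ± 13.8 and 84.8 ± 4.17 CPM and the scramblase-family gene Plscr1 at 17.8 ± 3.17 and 10.2 ± 3.80, both with groups apart (limma, adjusted p = 0.141 and 0.158). At an unadjusted p under 0.05, this list had 2 lower and 0 higher. Its groups were apart and lower for 2 genes and apart and higher for 1. That 1 was Ano6, picked after its values were seen, at 223 ± 11.0 and 248 ± 6.12 CPM (limma, adjusted p = 0.391).

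**Figure D4:**
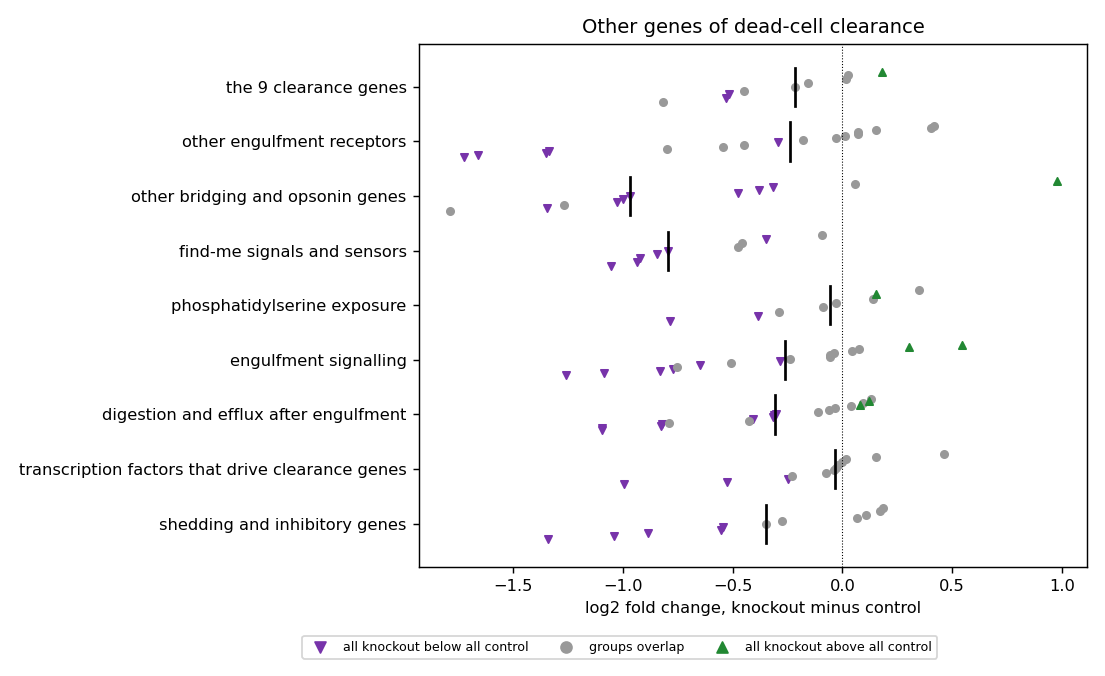
Log2 fold change (knockout minus control) of every measured gene in the 8 pathway lists and of the 9 clearance genes (points), with the list median as a line. Triangles mark genes whose groups do not overlap. The opsonin list (median −0.97) and the find-me list (median −0.79) lie furthest to the left.

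Behind the receptors, the haematopoietic exchange factors Dock2 and Vav1 stood at 87.8 ± 18.0 and 41.1 ± 9.93 CPM and at 60.6 ± 17.1 and 24.8 ± 7.90, and the small GTPase gene Rhog at 49.8 ± 9.44 and 31.2 ± 3.26 (limma, adjusted p = 0.107 to 0.119). The widely expressed Dock1 and Rac1 stood at 71.5 ± 2.16 and 68.9 ± 7.16 CPM and at 279 ± 11.8 and 272 ± 12.3 (limma, adjusted p = 0.799 and 0.864). The engulfment adaptor Gulp1 stood higher in every knockout library, at 27.8 ± 2.15 and 41.6 ± 9.36 (limma, adjusted p = 0.158), and Dock1, Rac1 and Gulp1 were picked after their values were seen. The list had 6 lower and 2 higher of 16 at an unadjusted p under 0.05.

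Genes that digest the cargo and export its lipid numbered 18, of which 9 had an unadjusted p under 0.05, all lower, with a median of −0.31. The lysosomal nuclease Dnase2a stood at 54.1 ± 12.8 and 30.0 ± 6.39 CPM, the mitochondrial carrier Ucp2 at 235 ± 61.1 and 130 ± 25.2, and the sterol exporter Abcg1 at 230 ± 64.8 and 109 ± 41.2 (limma, adjusted p = 0.121 to 0.137). Among transcription factors that drive clearance genes, the oxysterol receptor Nr1h3 stood at 38.2 ± 4.01 and 26.7 ± 6.59 with its groups apart (limma, adjusted p = 0.188). Ppard stood at 36.5 ± 3.17 and 30.5 ± 1.05, and the list median was −0.03 over 12 genes. Adam17, the protease that sheds Mertk from the cell surface, stood at 112 ± 15.0 and 75.9 ± 11.6, and the inhibitory receptor Pirb at 175 ± 59.1 and 68.3 ± 21.9 (limma, adjusted p = 0.122 and 0.112).

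Genes with the profile most like that of each clearance gene were found by the root mean square difference of centred log2(value + 1) over the 6 libraries, among genes with a mean of at least 5 CPM. Stab1 lay near to Mfsd1 (0.034), and Sirpa to the heparanase gene Hpse (0.071) and the platelet-activating factor receptor gene Ptafr (0.073). Cd47 lay nearest to Sh3pxd2b (0.058) and Runx2 (0.070), and Mfge8 to the proton pump subunit gene Atp6v1e1 (0.047). Gas6 lay nearest to Slco3a1 (0.027) and the collagen gene Col6a1 (0.031), and Axl to Pttg1ip (0.023) and St3gal2 (0.025). Pros1 was nearest to Cd320 (0.042) and Plpp3 (0.045), Mertk to Ado (0.059) and Scnm1 (0.060), and Tyro3 to Ints7 (0.033) and Tapt1 (0.041). For comparison, the root mean square size of the centred profile itself was 0.12 for Axl and 0.59 for Sirpa.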

How the data were processed

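PolyA RNA of aortic arches in 6 libraries (RNA integrity at least 7.9) was sequenced after TruSeq library preparation, per the labels' protocols. Per the submitters' processing notes, the tools were limma, edgeR, RSEM 1.16, Bowtie 0.12.7, cutadapt 1.6.1 and CASAVA 1.8 and the build was NCBIM37, with no roles stated. For the annotation and the strand setting, no source used here gives a name. The deposited table holds normalised signal, which its values show to be (reads + 0.5) times a constant of each library; whole reads came out of 100% of values at a tolerance of 0.01. All listed genes exceed 1 in at least 3 libraries. Each column is headed by its group and library number, not by an individual sample. Symbols matched 13828 of 14298 identifiers.

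Groups were compared with limma 3.58.1 (R 4.3.3) on log2(value + 1), with a variance trend, no covariates, two-sided p-values and Benjamini-Hochberg adjustment over all genes, after requiring at least 1 in at least 3 libraries. The code was tested on simulated data. Depth limits Tyro3 most, and no molecular identifiers are named in the labels. The 9 genes and all lists were chosen with earlier results of these data known. Named genes are the 9, Rbpj, the 3 smallest p per pathway list and the 2 nearest profiles per gene, of which some are not reported here. Alternatives were other pseudocounts, filters, scalings and variance models, array weights, limma-voom, edgeR 4.0.16 and DESeq2 1.42.0 on recovered reads, and libraries left out.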

Additional observations from a re-analysis of the deposited data

How the results depend on the processing

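No paired analysis was possible because the columns carry library numbers and not the replicate numbers of the labels. The filter on low values removed 0 genes. Over all genes, limma called 3 with all libraries (2 of them airway transcripts), 0 with a pseudocount of 0.5, 0 with at least 5 in at least 3 libraries, 1 without the variance trend, 1011 with array weights and 10 at an adjusted p threshold of 0.1. Limma-voom called 0, edgeR 0 and DESeq2 900. With 1 library left out, limma called 0 to 671 (671 without control S591), and 0 without S598 and S599. Of the 9 clearance genes, 1 (Cd47) was called with array weights and 0 under every other alternative. At an unadjusted p under 0.05 edgeR had 2 lower, limma-voom 3 and DESeq2 4, where 1737, 1774 and 1482 of all 14298 genes were lower. The number with groups apart ran from 3 to 5 with 1 library left out (29.6% to 43.4% of all genes), and was 5 without S598 and S599 (57.4% of all genes), and smaller groups separate more genes. Their median log2 fold change ran from −0.30 to −0.15 with 1 library left out. Signs turned for Mertk with array weights (−0.11) and, with 1 library left out, for Mertk (−0.075 to 0.17), Tyro3 (−0.068 to 0.12) and Rbpj (−0.045 to 0.12). Without S598 and S599 it turned for Rbpj (−0.16). The cause of these changes was not tested. Axl, Stab1, Gas6, Pros1, Mfge8, Cd47 and Sirpa kept their sign under every alternative run.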
